A study of Mus musculus with 4 samples.

Results

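The tumour necrosis factor (TNF) superfamily ligands and receptors were examined for binding of PPARγ, the nuclear receptor that AMs (alveolar macrophages, the resident phagocytes of the airspace) depend on. The family was taken as every protein-coding mouse gene whose symbol begins with Tnfsf or Tnfrsf, plus Fas, Fasl, Cd40, Cd40lg, Cd27, Cd70, Ltbr, Lta and Ltb, which gave 41 genes, 17 ligands and 24 receptors, of 20923 protein-coding genes. Genes entered the family by symbol alone, with no measured value, although the family itself was chosen with earlier results of these data known. AMs came from the bronchoalveolar lavage of WT C57BL/6J mice aged 9 weeks, and were sorted and carried through HT-ChIPmentation with an antibody against PPARγ. HT-ChIPmentation is chromatin immunoprecipitation in which a transposase adds the sequencing adapters while the chromatin is still on the beads. The samples formed 1 group of 2 ChIP libraries, called library 1 and library 2 after their replicate numbers, and each was set by the authors against its own input library. No treatment or genotype was compared, and nothing in the labels says that both libraries came from separate animals, so the spread between them may be technical.

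The peak list of library 1 held 83787 peaks with a median fold enrichment of 4.44, and that of library 2 held 28535 peaks with a median of 5.07. Fold enrichment is the ratio of ChIP over input at the peak summit, as the peak caller gave it. Peaks overlapping by at least 1 bp were merged, and the 20233 regions with a peak of both libraries (consensus regions) were each given to the protein-coding gene whose curated RefSeq transcription start site (TSS) was nearest. Of 10 marker genes of AMs all 10 had a consensus region, against 31.6% of all protein-coding genes. Among marker genes of other cells it was 1 of 7 T cell, 1 of 6 B cell, 3 of 6 neutrophil (50%) and 2 of 6 lung epithelial genes (33.3%). The AM list holds Pparg itself, so its count is no independent check of cell identity. The peak lists carry no read counts, so the depth behind a single value is unknown.

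TNF family ligands are mostly membrane proteins that act as trimers, some after being cut from the cell surface. Their receptors fall into those with an intracellular death domain, which can start apoptosis, those that bind TRAF adaptors and drive NF-κB, and decoys without signalling. In the lung, macrophages both release TNF family ligands and respond to them, and the family is best known for inflammation, lymphocyte co-stimulation, B cell survival and the removal of cells by apoptosis.

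Of the 41 family genes, 19 (46.3%) were nearest to at least 1 consensus region, against 31.6% of all protein-coding genes. Of these, 9 were ligands (52.9% of 17) and 10 were receptors (41.7% of 24). At least 3 regions lay at 8 family genes (19.5%), against 11.1% of all genes. The family had 64 regions, 28 at ligands and 36 at receptors. A family gene had a mean of 1.56 regions, against 0.967 over all genes. The genome that lies nearest to a gene's TSS had a median length of 44.4 kb for family genes and 48.8 kb for all genes. Per 100 kb of such sequence, summed over genes, the family had 2.05 regions, against 0.768 for all genes. That density rests on summed lengths, which the medians do not describe. In the list of library 1 taken alone, 29 family genes (70.7%) had a peak, against 60.6% of all genes. In that of library 2 taken alone, 21 family genes (51.2%) had one, against 34.9% of all genes. Both shares of the family lay above those of all genes, and no test was made of the excess, because the family was chosen with earlier results known and its genes often sit side by side.

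**Figure D1:**
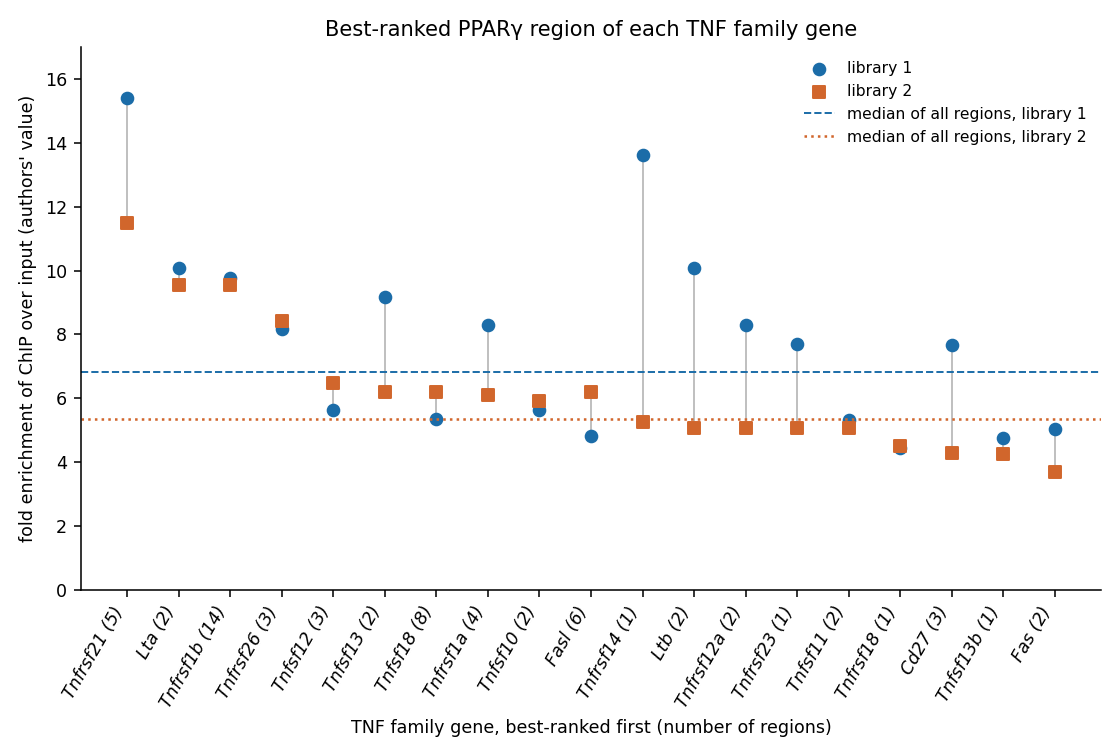
Fold enrichment (ratio of ChIP over input) of the best-ranked region of each of the 19 TNF family genes with a consensus region, in library 1 (circles) and library 2 (squares), with the number of regions in brackets and the medians of all regions (6.81 and 5.35) as lines. Tnfrsf21 is at the left with 15.4 in library 1 and 11.5 in library 2, and Fas is at the right with 5.04 and 3.68.

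Within the family the regions were of unequal strength. Every region was ranked among the 20233 by the lower of its 2 within-library percentiles of fold enrichment, so that rank 1 is strong in both libraries. The best region of a family gene had a median rank of 8365, against 6152 over all genes with a region. Only 3 of the 19 genes, Tnfrsf21, Lta and Tnfrsf1b, had their best region in the top 10% of ranks (21.1% of all genes with a region), and 8 genes (42.1%) had it in the weaker 50% of ranks, against 31.4%. Most of the best regions thus lay outside the top ranks.

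Over all 64 regions the median fold enrichment was 5.33 in library 1 and 5.30 in library 2, against 6.81 and 5.35 over all regions. The family values ran between 2.34 and 15.4 in library 1 and between 3.32 and 11.5 in library 2. A fold of 5 or more in library 1 and library 2 alike was met by 28 regions (43.8%), against 52.9% of all regions. The fold was higher in library 1 at 38 regions (59.4%, against 71.8% of all regions) and in library 2 at the other 26. Across the 64 regions, the folds of both libraries correlated with a Pearson r of 0.49 on log2 values and a Spearman rho of 0.47, against 0.61 and 0.55 across all regions. Those are descriptions across regions of the same 2 libraries, several of which share a gene. The summits of both libraries lay within 100 bp of each other in 24 regions (37.5%), against 52.7% of all regions.

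**Figure D2:**
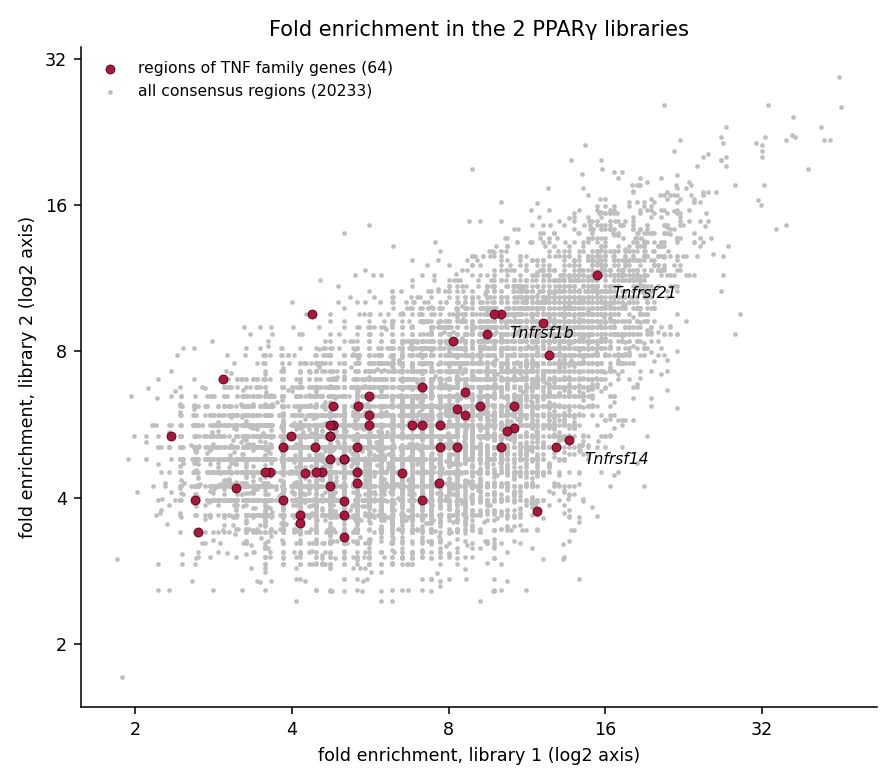
Fold enrichment of each consensus region in library 1 (horizontal, log2 axis) and library 2 (vertical, log2 axis). The 64 regions of TNF family genes (large points) run between 2.34 and 15.4 in library 1 and between 3.32 and 11.5 in library 2, inside the cloud of all 20233 regions (small points), and only the top Tnfrsf21 region is near its upper right part.

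The sequence around the summits is shown for 6 intergenic regions, chosen because they carry binding of high rank at receptor genes (Tnfrsf21, Tnfrsf1b, Tnfrsf26), the TNF receptor 1 gene (Tnfrsf1a), or the ligands of the best-known death receptors (Tnfsf10 and Fasl). PPARγ pairs with RXR on a DR1 element, a direct repeat of the hexamer AGGTCA with 1 base between the copies. Windows of 100 bases on each side of the library 1 summit were searched on both strands for that element, exact or with up to 2 mismatches in its 12 repeat bases, and for the hexamer alone. They were also searched for PU.1 (GAGGAAGT), the ETS core it contains (GGAAGT), C/EBP (TTGCNNAA), AP-1 (TGANTCA), RUNX (TGTGGT) and NF-κB (GGANTTTCC) letters. Capitals mark every match of any of these, on either strand. The sequences read along the plus strand of GRCm38 (mm10).
Tnfrsf21 chr17:43138385-43138585: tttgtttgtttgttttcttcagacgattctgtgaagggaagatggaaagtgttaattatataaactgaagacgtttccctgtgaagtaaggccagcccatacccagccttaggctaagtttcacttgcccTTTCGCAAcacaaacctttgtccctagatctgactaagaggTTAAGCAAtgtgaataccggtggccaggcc
Tnfrsf1b chr4:145258042-145258242: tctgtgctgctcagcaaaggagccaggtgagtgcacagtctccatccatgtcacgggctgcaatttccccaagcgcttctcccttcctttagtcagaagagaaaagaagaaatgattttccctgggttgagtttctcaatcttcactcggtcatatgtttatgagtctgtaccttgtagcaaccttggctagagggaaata
Tnfrsf26 chr7:143631634-143631834: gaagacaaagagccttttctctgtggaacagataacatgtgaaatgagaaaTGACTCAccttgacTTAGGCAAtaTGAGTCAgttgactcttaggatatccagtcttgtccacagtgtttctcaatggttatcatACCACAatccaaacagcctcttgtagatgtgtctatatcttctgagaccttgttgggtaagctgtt
Tnfrsf1a chr6:125345579-125345779: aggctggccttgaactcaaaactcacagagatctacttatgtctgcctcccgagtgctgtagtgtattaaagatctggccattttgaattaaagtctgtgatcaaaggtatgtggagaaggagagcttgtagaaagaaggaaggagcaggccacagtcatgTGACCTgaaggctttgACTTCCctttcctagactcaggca
Tnfsf10 chr3:27302503-27302703: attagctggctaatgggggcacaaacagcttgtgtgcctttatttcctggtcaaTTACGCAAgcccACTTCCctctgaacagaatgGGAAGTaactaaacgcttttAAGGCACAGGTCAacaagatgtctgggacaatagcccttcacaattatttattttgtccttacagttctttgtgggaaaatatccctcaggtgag
Fasl chr1:161708518-161708718: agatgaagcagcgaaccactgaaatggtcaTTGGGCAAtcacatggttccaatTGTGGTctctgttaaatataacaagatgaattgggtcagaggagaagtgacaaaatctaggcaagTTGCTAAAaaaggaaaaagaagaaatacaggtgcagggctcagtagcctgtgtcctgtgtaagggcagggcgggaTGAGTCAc

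The Tnfrsf21 window held a pair of C/EBP matches, and that of Tnfrsf26 held a pair of AP-1 matches flanking a C/EBP match, with a RUNX match further on. The Fasl window held C/EBP, RUNX and AP-1 matches, and that of Tnfrsf1a the AGGTCA hexamer and the ETS core. The Tnfrsf1b window, beneath the best region of that gene, held no match to any of these letters. Of these 6, only the Tnfsf10 window held the DR1 element, with 2 mismatches and ending in an intact hexamer.

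The exact DR1 element was in none of the 64 family windows and in 13 of the 20233 windows of all regions (0.0643%). With up to 2 mismatches it was in 3 family windows (4.69%), against 4.57% of all windows. These near-equal shares held in the main windows only. Within 50 bp they were 4.69% against 2.33%, and within 200 bp 4.69% against 7.93%. Around the library 2 summits it was in 1 family window (1.56%), against 5.002% of all windows. The 3 matches are shown on their own strand because they are the closest letters to a PPARγ:RXR element at the family.
Tnfsf10 chr3:27302609-27302621, plus strand: AAGGCACAGGTCA
Tnfrsf26 chr7:143628189-143628201, minus strand: AGTTCATTGGTCA
Tnfsf12 chr11:69710254-69710266, minus strand: AGGTCAAAGATAA

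Of these, the Tnfsf10 match lay in its best region at −14.6 kb, the Tnfrsf26 match in the promoter region at −0.49 kb, and the Tnfsf12 match in the region at −14.3 kb, where negative distances are upstream of the TSS. The hexamer was in 12 family windows (18.8%), against 14.9% of all windows, but in 25%, against 25.6%, within 200 bp. RUNX letters were in 19 (29.7%), against 19.8%, and C/EBP letters in 15 (23.4%), against 15.1%. RUNX matches were spread over 10 family genes, with 5 of the 19 at Tnfrsf1b, and C/EBP matches over 11. ETS core letters were in 14 windows (21.9%, against 29.4%), PU.1 letters in 2 (3.13%, against 6.83%), AP-1 letters in 5 (7.81%, against 9.98%, but 17.2%, against 9.53%, around the library 2 summits) and NF-κB letters in 2 (3.13%, against 0.919%). The NF-κB matches were at Fasl (+59.8 kb) and Tnfrsf21 (+123 kb). No match to any of the patterns was found in 21 family windows (32.8%), against 37.1% of all windows. Matches are descriptions of letters in these windows and not sites.

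Among the receptors of TNF itself, Tnfrsf1b, which encodes TNF receptor 2, had the most regions of the family. There were 14 between −30.0 and +13 kb, a number reached or passed by 165 of all genes, or 23.3 regions per 100 kb. The count depended on how regions were made: it was 4 at a reciprocal overlap of 50%, fewer than the 6 of Tnfsf18 and the 5 of Fasl, 6 with summits within 100 bp, 7 when any annotated gene could take a region, 7 within 10 kb, and 37 in library 1 alone. Fold enrichment over its 14 regions ran between 2.64 and 12.4 in library 1 and between 3.40 and 9.54 in library 2, and 7 regions reached 5 in both. The best one, chr4:145257293-145258509 in intergenic sequence at −11.0 kb, had 9.77 in library 1 and 9.54 in library 2 (rank 1376). The next had 12.1 and 9.17 at −20.9 kb (rank 1404), followed by 9.48 and 8.70 at +13 kb (rank 1846) and 12.4 and 7.87 at +6.06 kb (rank 2588). Strong regions therefore lay on both sides of the start site, 6 regions of the 14 within introns of Tnfrsf1b and 5 in the intergenic stretch upstream. The other 3, among them the one at −20.9 kb in a noncoding exon, lay inside the neighbouring Tnfrsf8, the gene for CD30. Tnfrsf8 itself had no consensus region nearest to its own TSS, but 4 peaks of library 1, of which the highest had a fold of 5.33. Assignment to the nearest TSS does not show which of both neighbours a region acts on.

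Tnfrsf1a, which encodes TNF receptor 1, the death domain receptor of TNF, had 4 regions between −7.35 and +1.06 kb. The best, chr6:125345415-125346026 at −4.00 kb, had 8.29 in library 1 and 6.10 in library 2 (rank 6251). A region of 2744 bp, the widest of the family, spanned the TSS with 10.7 and 5.57. The region at −7.35 kb, in an intron of the sodium channel gene Scnn1a, had 11.8 in library 1 and 3.75 in library 2. That pair of values shows how far both libraries could differ at 1 region.

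Tnf, the founding ligand, lies outside the symbol rule but between the lymphotoxin genes Ltb and Lta. It had 2 regions, and its best, chr17:35200396-35202502 at +0.558 kb in an intron of Tnf, had 11.3 in library 1 and 12.1 in library 2 (rank 790), the strongest of that locus. Lta, the gene for lymphotoxin α, which signals through both TNF receptors, had its best region at −14.5 kb, chr17:35219201-35220511, with 10.1 and 9.54 (rank 1214). That region overlapped the end of the Nfkbil1 transcript by 337 bp. The next nearest start, that of Atp6v1g2, was 15.2 kb away, and assigned from its library 1 summit the region no longer fell to Lta. The other region of Lta, at −3.98 kb, was weak, with 4.15 and 3.68. Ltb, the gene for the membrane partner lymphotoxin β, had 10.1 and 5.07 at chr17:35192971-35193843, −1.10 kb from its TSS (rank 10253). Its second region, at +2.51 kb, had 2.34 in library 1, the lowest of the family, and 5.35 in library 2. Ltbr, the receptor of the lymphotoxin heterotrimer, was assigned no peak of either library.

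**Figure D3:**
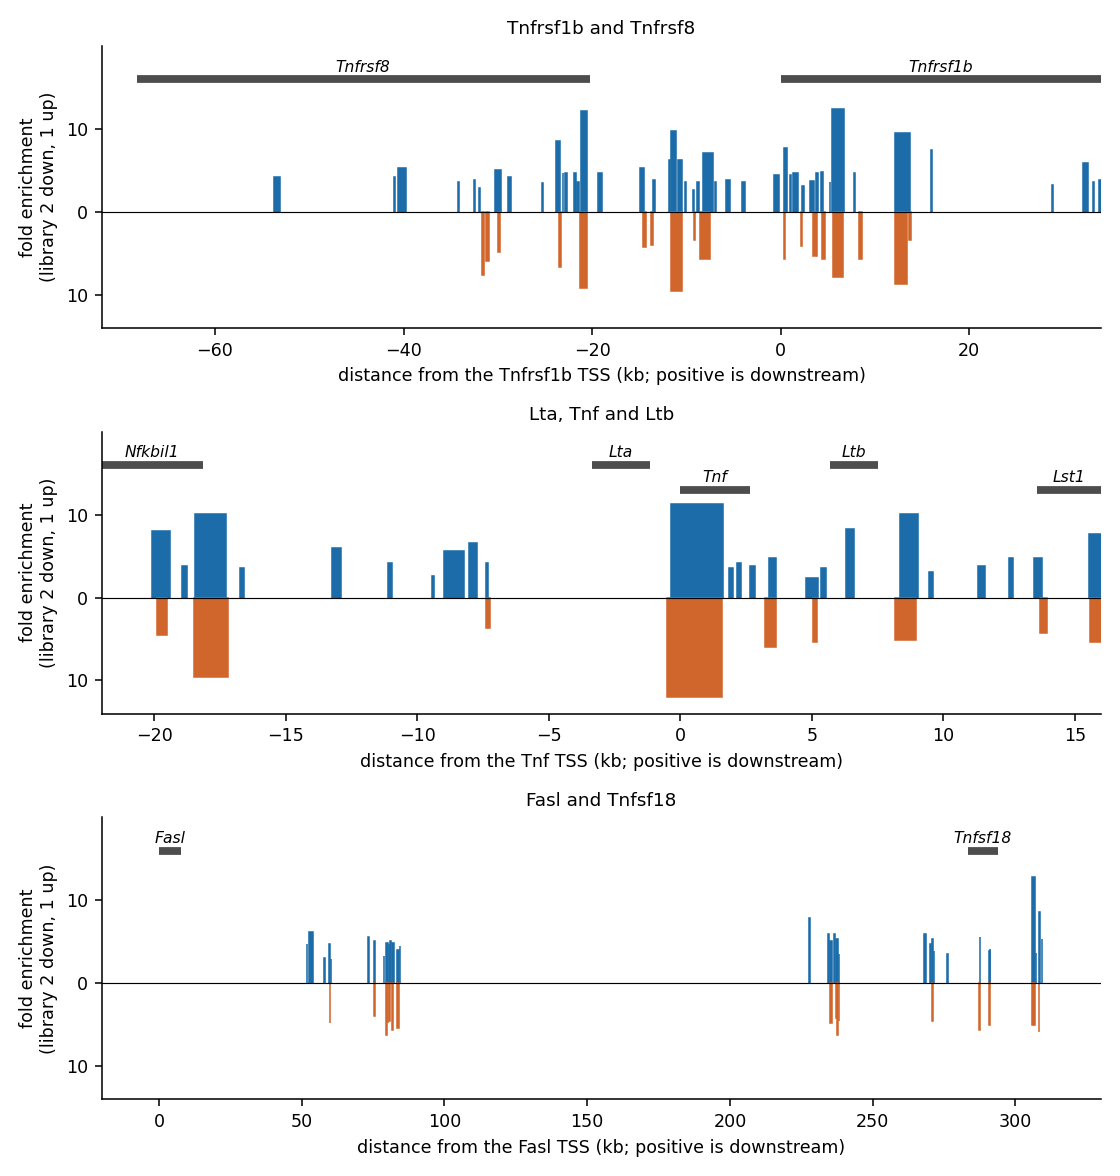
Peaks of library 1 (blue, upward) and library 2 (orange, downward) at 3 TNF family loci, with distance from the named TSS in kb on the horizontal axis and fold enrichment as height. Bars span each peak, with an outline that keeps narrow peaks visible, and dark lines are genes. Tnfrsf1b has regions on both sides of its TSS, the tallest bars of both libraries at the Tnf locus cover the Tnf start, and Fasl has its regions 59.8 to 83.7 kb downstream.

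Among the death receptors and their ligands, Tnfrsf21 had the best-ranked region of the whole family. Tnfrsf21 encodes death receptor 6, a death domain receptor. Its region chr17:43137514-43139181 had 15.4 in library 1 and 11.5 in library 2 (rank 464, the only family region among the first 1000) and lay +122 kb from the TSS in intergenic sequence. The next nearest gene, Adgrf1, had its start 132 kb away. The other 4 lay at +16.2, +19.9 and +42.2 kb in its introns and at +123 kb. Their folds ran between 3.63 and 10.7 in library 1 and between 4.52 and 9.54 in library 2. The region at +16.2 kb was stronger in library 2 (4.36 in library 1 and 9.54 in library 2), and the one at +19.9 kb stronger in library 1 (10.7 and 6.19).

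Fasl, which encodes the Fas ligand, had 6 regions, all of them downstream, between +59.8 and +83.7 kb. Of these, 5 fell in a stretch of 8.818 kb, 75 to 84 kb from the TSS. The best, chr1:161708401-161708966 at +79.8 kb, had 4.80 and 6.19 (rank 8365), and over all 6 the folds ran between 3.98 and 5.04 in library 1 and between 3.94 and 6.19 in library 2. They formed a cluster of moderate regions without a region at the gene itself. All 6 were nearer to other genes when any annotated gene could take a region, none reached a fold of 5 in both libraries, and library 1 alone had 14. Fas, its receptor, had 2 regions, one with 5.04 and 3.68 at −6.67 kb (rank 18831) and one with 2.95 and 7.03 at +91.7 kb, and the first of these was the lowest-ranked best region of the 19 genes.

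Tnfsf10, the gene for the apoptosis ligand TRAIL, had 2 regions, both upstream. That at −14.6 kb, chr3:27302247-27302751, had 5.63 in library 1 and 5.91 in library 2 (rank 7127), and that at −28.2 kb had 4.74 and 5.63. Tnfrsf10b, the mouse death receptor for TRAIL, was assigned no peak of either library. The mouse decoy receptor genes Tnfrsf22 and Tnfrsf23 and their neighbour Tnfrsf26 form a cluster on chromosome 7. Tnfrsf26 had 3 regions, the best of them chr7:143630946-143632564 at −3.91 kb with 8.16 and 8.42 (rank 2180). Its promoter region at −0.49 kb had 6.81 and 5.63, and the third, at −8.98 kb in a noncoding exon of Tnfrsf22, had 4.74 and 5.35. Tnfrsf23 had 1 region spanning its TSS, chr7:143685788-143686377 at −0.21 kb, with 7.70 and 5.07 (rank 10497). Tnfrsf22 had no consensus region and 1 library 1 peak of 4.44.

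The 2 B cell survival ligands each had a region at the start site, and their 3 receptors had none, as had most genes. Neither ligand kept a region when the summits of both libraries had to lie within 100 bp. Tnfsf13 encodes APRIL, and its region chr11:69683890-69686035 spanned the TSS, held 3 peaks of each library and had 9.18 in library 1 and 6.19 in library 2 (rank 5779). A second, at −2.46 kb, had 5.04 and 3.32. Tnfsf13b encodes BAFF, and its 1 region, at +0.02 kb in the promoter, had 4.74 and 4.24 (rank 16399). The receptors Tnfrsf13c (BAFF receptor) and Tnfrsf17 (BCMA) were assigned no peak of either library, and Tnfrsf13b (TACI) had 2 peaks of library 1 only, up to 5.04.

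Tnfsf12, next to Tnfsf13, encodes TWEAK, and Tnfrsf12a encodes its receptor Fn14. Both had a region spanning the TSS. The Tnfsf12 region, chr11:69695840-69696324, was its best, with 5.63 in library 1 and 6.47 in library 2 (rank 5567), and further ones had 10.4 and 5.49 at +4.07 kb and 6.52 and 4.50 at −14.3 kb. Tnfsfm13, a read-through gene of Tnfsf12 and Tnfsf13, shares the Tnfsf12 TSS, and the tie was given to Tnfsf12, so that Tnfsfm13 counts as having no region. Tnfrsf12a had its best region at +1.61 kb in a noncoding exon, chr17:23675074-23676596, with 8.29 and 5.07 (rank 10408), and a promoter region at +0.08 kb with 4.24 and 4.50. The start of Thoc6 was 1.96 kb from the best region. With each library taken alone, the highest fold assigned to Tnfrsf12a was 4.74 in library 1 and 4.50 in library 2.

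Among the co-stimulatory pairs, which are known mainly from T cells, Tnfsf18 and Tnfrsf18 (GITR ligand and GITR) both had regions. Tnfsf18 had 8, between −14.6 and +58.4 kb, of which the best-ranked was chr1:161550560-161551390 at +56.3 kb with 5.35 in library 1 and 6.19 in library 2 (rank 6218). Its regions at −12.4 kb (12.9 and 5.07) and at −14.6 kb (8.59 and 5.91) had the higher folds in library 1. Tnfrsf18 had 1 region at +7.50 kb, with 4.44 and 4.52 (rank 14690). Tnfrsf14, which encodes HVEM, had 1 region close to its TSS, chr4:154928780-154929763 at −1.19 kb, whose folds of 13.6 in library 1 and 5.25 in library 2 (rank 9902) differed widely. Cd27, a receptor of T and B cells, had 3 neighbouring regions between −18.0 and −15.4 kb, the best with 7.68 and 4.29 (rank 15337), and its ligand Cd70 had none. Tnfsf11, the gene for the osteoclast factor RANKL, had 2 distant regions, chr14:78395267-78395596 at −87.4 kb with 5.33 and 5.07 (rank 11017) and one at −22.8 kb with 4.15 and 3.55.

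**Figure D4:**
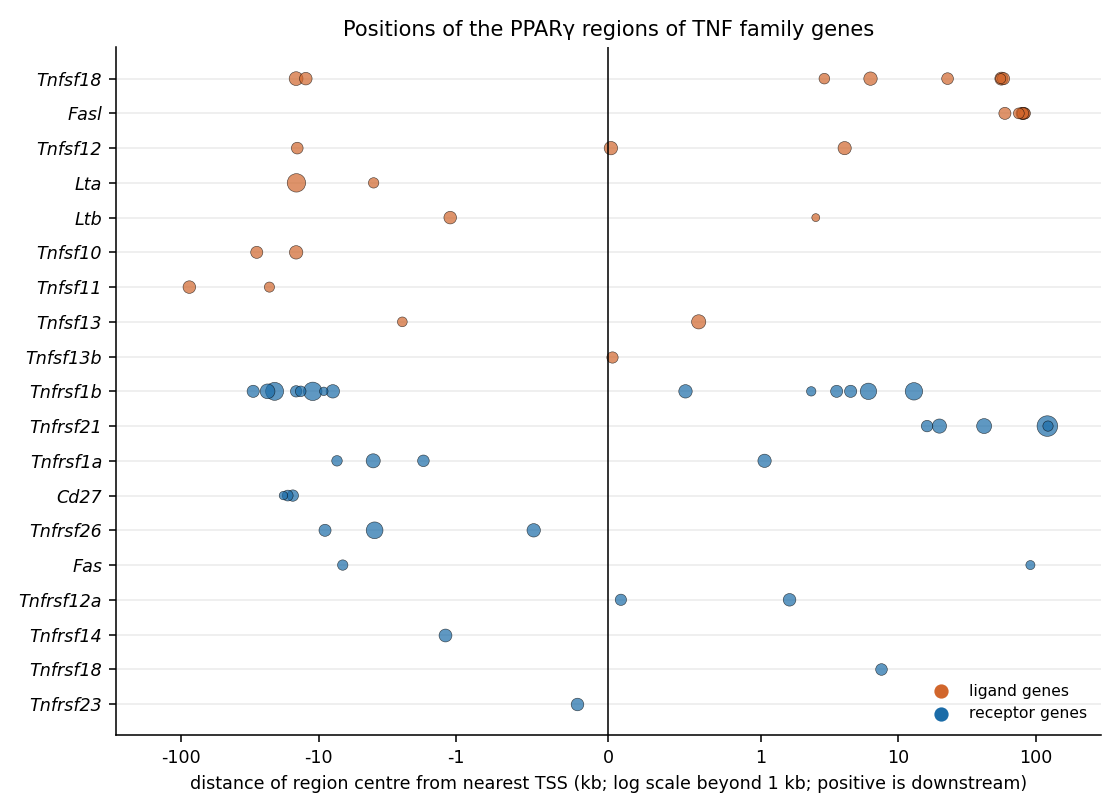
Distance of each of the 64 regions from the TSS of its gene (kb, log scale beyond 1 kb, positive is downstream), with 1 row for each of the 19 TNF family genes, ligands in orange and receptors in blue. The area of a point grows with the lower fold enrichment of both libraries, and the largest point, at +122 kb, belongs to Tnfrsf21.

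The remaining 22 family genes had no consensus region. Of these, 12 were assigned no peak of either list: Cd40 and its ligand Cd40lg, Cd70, Ltbr, Tnfrsf4 (OX40), Tnfrsf9 (4-1BB), Tnfrsf10b, Tnfrsf13c, Tnfrsf17, Tnfrsf19 (TROY), Tnfrsf25 (death receptor 3) and Tnfsfm13, the last only because the region at its TSS was counted for Tnfsf12. For Tnfrsf9, a region within 10 kb of its TSS was nearer to that of Park7. The other 10 had peaks that did not meet in both libraries, 33 in library 1 and 2 in library 2. They were Tnfrsf8, Tnfrsf13b and Tnfrsf22, the RANK gene Tnfrsf11a with its decoy Tnfrsf11b (osteoprotegerin), and the ligand genes Tnfsf4 (OX40 ligand), Tnfsf8 (CD30 ligand), Tnfsf9 (4-1BB ligand), Tnfsf14 (LIGHT) and Tnfsf15 (TL1A). Their highest library 1 folds ran between 4.15 at Tnfrsf11b and Tnfsf4 and 8.89 at Tnfsf9, and 8 of the 10 had no library 2 peak. Of the other 2, Tnfsf9 had 5 library 1 peaks and a library 2 peak of 4.09 at 3.13 kb from its TSS. Since the list of library 2 is much shorter, a gene without a region is one where shared binding was not called, not one shown to be unbound. Shares over all genes were not computed for the sets of 12 and 10. In library 1 alone, 70.7% of family genes had a peak, against 60.6% of all genes.

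Set out by known ligand and receptor pairs, 24 pairings could be formed. Both partners had a region in 6: Fasl with Fas, Tnfsf12 with Tnfrsf12a, Tnfsf18 with Tnfrsf18, Tnfsf10 with the decoy Tnfrsf23, and Lta with each of Tnfrsf1a and Tnfrsf1b. In 10 pairings only the ligand had one, among them all 5 of APRIL and BAFF and both of RANKL. In 2 only the receptor had one (Cd27 and Tnfrsf14), and in 6 neither, among them the CD40, OX40, CD30 and 4-1BB pairs. The pairings share genes and have no share over all genes to be set against. Both partners kept a region in 3 pairings where both libraries had to reach a fold of 5 (without Fas, Fasl, Tnfrsf12a and Tnfrsf18), and in 3 at a reciprocal overlap of 50%.

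Distance from the start site and position in transcripts are given as descriptions, with no test. The median distance of the family regions from the TSS was 12.7 kb, against 8.51 kb over all regions, with 14.6 kb for ligands and 8.43 kb for receptors. Of the 28 ligand regions, 14 were at Fasl and Tnfsf18, and medians without these 2 genes were not computed. Within 1 kb lay 7 regions (10.9%), against 23.8% of all regions, and beyond 3 kb lay 48 (75%), against 63.5%. Beyond 50 kb lay 13 (20.3%), against 16.9%, of which 10 belonged to ligands and 3 to receptors. Of those 10 ligand regions, Fasl had 6, Tnfsf18 had 3 and Tnfsf11 had 1. A region within 3 kb was present at 11 of the 19 genes, and the other 8 (Cd27, Fas, Fasl, Lta, Tnfrsf18, Tnfrsf21, Tnfsf10 and Tnfsf11) had only regions further away. That share was not computed over all genes with a region. By position, 37 region centres (57.8%) were intergenic, against 31.0% of all regions, with 20 of 28 at ligands (71.4%) and 17 of 36 at receptors (47.2%). Introns held 18 (28.1%, against 46.9%), promoters 5 (7.81%, against 18.6%), noncoding exons 4 (6.25%, against 2.51%) and coding exons 0 (against 1.03%). The intergenic share rested in part on 2 genes: without the 14 regions of Fasl and Tnfsf18 it was 25 of 50 (50%), and the promoter share was 10%. These 2 genes held 12 of the 20 intergenic ligand regions. The median width was 583 bp, against 626 bp.

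**Figure D5:**
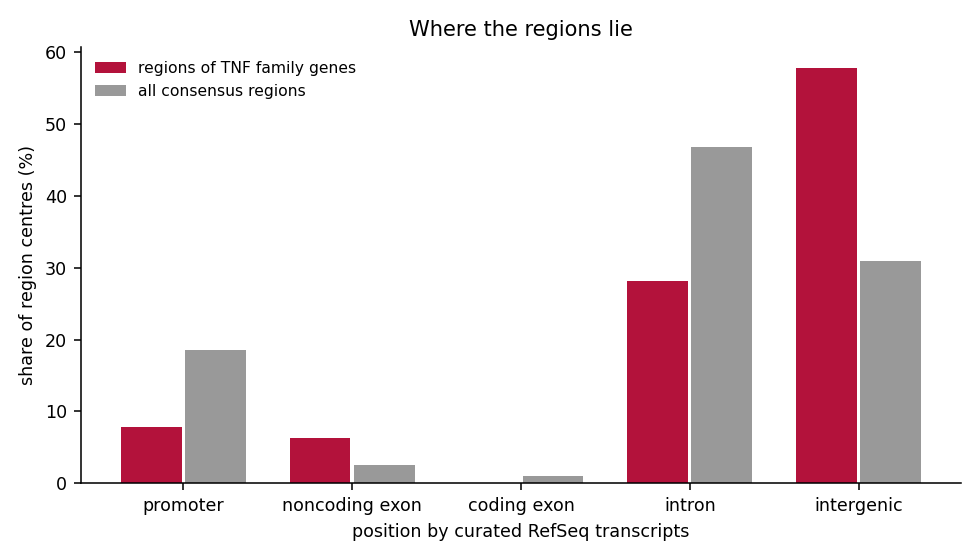
Share of region centres (%) by position in curated RefSeq transcripts, for the 64 regions of TNF family genes (red) and all 20233 consensus regions (grey). Intergenic sequence holds 57.8% of the family regions, against 31.0% of all regions, and promoters 7.81%, against 18.6%.

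Downstream of the receptors, a list of 51 genes covering signalling, shedding and family genes outside the symbol rule had 30 with a region (58.8%, against the same 31.6% of all genes). All 8 NF-κB subunit and inhibitor genes had one. The best of these were at Nfkbia, which encodes the inhibitor IκBα (14.8 in library 1 and 12.3 in library 2, rank 334), Nfkb2 (13.3 and 11.2, rank 530) and Rel (11.8 and 10.9, rank 640). These are all stronger than the best region of any family gene but Tnfrsf21, whose rank of 464 lay between those of Nfkbia and Nfkb2. The Nfkbia region was intergenic at +18.5 kb, and the only region of Nfkbib had its centre in the promoter of Sirt2. Among the ubiquitin regulators 6 of 10 had a region, led by Tnfaip3, which encodes the NF-κB brake A20 (12 regions, best 16.6 and 15.7, rank 129), with Birc3 at rank 2073 and Tax1bp1 at rank 3845. Among the cell death effectors 3 of 5 had one: Casp8, the initiator caspase of death receptors (16.9 and 14.8, rank 114), its inhibitor Cflar (8.59 and 8.70, rank 1913) and Bid (rank 12919). Of the kinases 5 of 9 had one, led by Map3k5 (17.8 and 12.9, rank 238), Map3k14 (rank 3084) and Ikbkb (rank 3161). Of the adaptors 4 of 10 had one, namely Traf3 (rank 5462), Traf5 (rank 7349), Traf2 (rank 15071) and Traf6, while Tradd, Fadd and Ripk1 had none. The shedding genes Rhbdf2 (13.6 and 9.82, rank 926) and Adam17 (13.9 and 9.82, rank 989), which act in the release of TNF from the membrane, each had a region, and Adam10 had none. Of the family genes outside the symbol rule, Tnf and Relt (rank 5459) had regions and Eda, Edar, Eda2r and Ngfr none.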

How the data were processed

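PPARγ was measured by HT-ChIPmentation in AMs. Per the submitters' processing notes and the methods of the study, reads were handled by the authors with CASAVA, bcl2fastq 2.20.0.422, SAMtools, cutadapt and Bowtie2 on mm10. They removed duplicate, low-quality and improperly paired reads, and called peaks with MACS3 for every library on its own, against the matching input, at a q of 0.05. The deposited lists hold the fold enrichment (a ratio), the p-value and q-value as −log10, and a score of 10 times the −log10 q-value cut to whole numbers. They hold no counts, so values cover no counting error, and a list of lower depth misses weak peaks. The 2 input libraries were not analysed here.

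Peaks overlapping by at least 1 bp were merged, regions with peaks of both libraries kept, and each assigned to the nearest TSS of curated RefSeq mRNAs (GRCm38) from its centre. Promoters began 1 kb before a TSS and ended 100 bp after it. Where a region held several peaks of 1 library, the highest fold was used. Coordinates are 1-based, and sequences are from the RefSeq copy of GRCm38. Every family gene was named, with coordinates for the 15 best-ranked, and pathway genes were named as Tnf plus the best-ranked 3 of each list; those with no region, Traf6, Relt and the other genes outside the symbol rule were added after their values were seen. The family, lists and alternatives were chosen with earlier results of these data known. No test was made, since there is 1 group of 2 libraries. Python 3.11.15, pandas 2.3.3, numpy 2.4.6 and matplotlib 3.10.9 were used, and the merging, assignment and motif search were tested on simulated data. Of 8 T cell markers, 1 (Trac) has no curated mRNA and was left out.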

Additional observations from a re-analysis of the deposited data

How the results depend on the processing

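Of the 19 family genes with a region, 19 kept one at a q of 0.001 (30.2% of all genes), with all RefSeq transcripts (31.4%) and within 100 kb (30.8%). All 19 also kept one when regions were assigned from the library 1 summit (31.6%), though Lta then kept only its weaker region. The number was 13 where both libraries had to reach a fold of 5 (without Cd27, Fas, Fasl, Tnfrsf12a, Tnfrsf18 and Tnfsf13b; 22.7% of all genes), 15 at a reciprocal overlap of 50% (22.4%), 14 with summits within 100 bp (24.2%), 15 when any annotated gene could take a region (27.1%), and 14 within 10 kb (25.5%). With 1 library alone it was 21 to 29 (34.9% and 60.6%), and the regions numbered 90 to 233. The 64 regions, of 20233 over all genes, became 27 at a fold of at least 5 (of 10719) and 36 at the reciprocal overlap (of 10403). They became 27 with close summits (of 11396), 37 with any annotated gene (of 20233) and 30 within 10 kb (of 10644). The fold setting made regions anew from peaks that reached 5, so its 27 differ from the 28 main regions that met that fold. The summit setting took any pair of summits in a region, where the earlier 24 took only the strongest peaks. Motif shares of the family windows changed with window width, and so did those of all windows, which are given second. Within 50 bp the AGGTCA hexamer was in 10.9% against 8.30%, the ETS core in 10.9% against 17.4%, and AP-1 in 3.13% against 5.51%. C/EBP was there in 15.6% against 8.29%, PU.1 in 1.56% against 3.90%, and NF-κB in 1.56% against 0.455%. Within 200 bp the ETS core was in 34.4% against 42.2%, and RUNX in 45.3% against 32.3%. C/EBP was there in 34.4% against 24.2%, and PU.1 in 6.25% against 9.72%. AP-1 was in 17.2% within 200 bp (15.9% of all windows) and in 17.2% at the library 2 summit (9.53%), so its direction against all regions turned. The direction of the DR1 element with up to 2 mismatches also changed with the setting, as given above. Ranked by −log10 of the q-value, the best region stayed for 16 genes and became another for Fas, Tnfrsf12a and Tnfrsf1a. No paired analysis was possible because the 2 ChIP libraries form 1 group and no input library was analysed here.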
